A study of Mus musculus with 6 samples.

Results

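The 7 genes Ankrd1, Ankrd2, Ankrd23, Xirp1, Xirp2, Fhl1 and Fhl2 encode muscle ankyrin repeat proteins, Xin actin-binding repeat proteins and four-and-a-half LIM domain proteins. They were chosen by name, and all 7 were among the 21887 protein-coding genes of the RefSeq table. For each gene, peaks of acetylated histone H3 lysine 27 (H3K27ac), a mark of active promoters and enhancers, were collected over the annotated gene body and 10 kb on each side. The peaks came from CUT&RUN, in which a tethered nuclease releases the DNA bound by an antibody, on left ventricular nuclei selected by PCM-1, which marks the nuclei of cardiomyocytes. All mice were FVB and 8 to 12 weeks old, and were wild type (WT, 3 libraries) or HOM (3 libraries), with the natriuretic peptide genes Nppa and Nppb deleted by CRISPR. The labels' protocol also names a Myh6-MerCreMer driver and nuclear reporter lines on FVB/N. It ties none of them to these 6 libraries, and it states neither the ends of the deletion nor whether each library came from its own mouse. Any p-value below therefore measures the spread between these libraries, which may be technical.

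The muscle ankyrin repeat proteins sit on the I-band of titin and shuttle to the nucleus, and their genes are known to be raised by stretch or pressure load. Ankrd1, also called CARP, is a classical marker of the stressed ventricle. Xin proteins bind actin at the intercalated disc and at sites of myofibril repair, and FHL proteins are LIM scaffolds at the sarcomere, where Fhl1 is raised in hypertrophy and Fhl2 is abundant in the unstressed heart. On that textbook basis Ankrd1, Ankrd2, Ankrd23 and Fhl1 were taken as the 4 load-induced genes, and Fhl2, Xirp1 and Xirp2 as the 3 constitutive ones.

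The lists differed widely in length, and HOM replicate 2 stood apart. Values per library are given throughout in the order WT replicates 1, 2 and 3, then HOM replicates 1, 2 and 3. The lists held 21340, 72362, 106605, 48102, 1462 and 15184 peaks, and these covered 6.69, 31.6, 55.7, 17.2, 0.296 and 4.54 Mb. At least 1 peak lay in the window of 26.2%, 50.8%, 60.4%, 40.6%, 2.44% and 20.5% of all protein-coding genes. All 8 cardiomyocyte markers examined, such as Tnnt2 and Ryr2, had a peak in every library except HOM replicate 2, where none did. Fibroblast markers had one at 0, 0, 1, 0, 0 and 0 of 5 genes, with Col1a1, Col1a2, Dcn and Pdgfra at 0 throughout, and skeletal muscle markers at 0, 1, 3, 1, 0 and 0 of 8 genes. Endothelial markers had a peak at 1, 3, 4, 1, 0 and 1 of 5 genes, immune markers at 1, 2, 2, 2, 0 and 2 of 5 (Ptprc, Csf1r and Adgre1 at 0 throughout), and smooth muscle and pericyte markers at 2, 3, 4, 2, 0 and 2 of 5. The immune count rests on Cd68 and on Spi1, whose window overlaps the cardiomyocyte gene Mybpc3 and has the same covered share as that gene in WT replicates 1 and 2 and HOM replicate 3. The smooth muscle and pericyte count rests mainly on Abcc9, with 7, 21, 32, 16, 0 and 2 peaks, and on Cspg4, with 1, 3, 5, 1, 0 and 1. Myh11 and Pdgfrb had no peak outside WT replicates 2 and 3, and Rgs5 had none in any library. Because nuclei were pooled in each library, fewer acetylated nuclei and less acetylation per nucleus cannot be told apart.

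RefSeq start-site windows were found for 6 of the 7 genes, all but Xirp1, and peaks overlapped at least 1 window at 4 of these 6. The bases before those starts are shown because the peaks overlap or abut them. Each line gives the 250 bases upstream of a RefSeq start site, 5′ to 3′ on the gene's strand, from RefSeq GRCm38.p6. Ankrd2 is added as a start without a peak over it in any library, like both Fhl1 starts and the second Fhl2 start. The Fhl1 starts and the second starts of Fhl2 and Ankrd23 are not printed, and their matches are given below. Capitals mark every match, on either strand, to 5 motifs known from muscle promoters: the M-CAT element CATTCC bound by TEAD factors, the GATA site AGATAA, the AP-1 site TGANTCA, the MEF2 site and the CArG box bound by SRF.
Ankrd1, chr19:36119845-36120094, minus strand: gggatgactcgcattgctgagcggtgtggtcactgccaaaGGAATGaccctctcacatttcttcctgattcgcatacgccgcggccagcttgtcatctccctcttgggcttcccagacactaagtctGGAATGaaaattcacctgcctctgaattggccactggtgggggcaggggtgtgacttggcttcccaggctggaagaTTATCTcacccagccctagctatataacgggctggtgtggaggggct
Ankrd23, chr1:36536557-36536806, minus strand: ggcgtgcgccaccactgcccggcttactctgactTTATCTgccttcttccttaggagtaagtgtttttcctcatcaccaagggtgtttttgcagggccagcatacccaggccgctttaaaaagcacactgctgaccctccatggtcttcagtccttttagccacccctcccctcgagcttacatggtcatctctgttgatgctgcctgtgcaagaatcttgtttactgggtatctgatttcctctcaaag
Xirp2, chr2:67445752-67446001, plus strand: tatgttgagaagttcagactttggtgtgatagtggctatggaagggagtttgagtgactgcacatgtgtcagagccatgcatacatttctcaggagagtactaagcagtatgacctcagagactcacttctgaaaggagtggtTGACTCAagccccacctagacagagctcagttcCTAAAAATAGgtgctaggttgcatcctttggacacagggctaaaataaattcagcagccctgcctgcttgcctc
Fhl2, chr1:43196762-43197011, minus strand: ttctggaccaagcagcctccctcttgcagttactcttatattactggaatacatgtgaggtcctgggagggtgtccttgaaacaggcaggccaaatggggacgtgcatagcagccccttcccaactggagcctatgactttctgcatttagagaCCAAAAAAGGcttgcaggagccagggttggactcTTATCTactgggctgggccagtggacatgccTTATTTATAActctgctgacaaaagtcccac
Ankrd2, chr19:42035777-42036026, plus strand: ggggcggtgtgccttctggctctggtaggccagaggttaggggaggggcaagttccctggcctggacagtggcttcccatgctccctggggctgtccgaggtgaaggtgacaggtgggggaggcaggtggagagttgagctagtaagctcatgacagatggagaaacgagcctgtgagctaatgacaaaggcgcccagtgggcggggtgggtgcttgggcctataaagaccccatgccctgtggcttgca

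The Ankrd1 window held 2 M-CAT matches, from -210 to -205 and from -123 to -118 counted from the start site, and a GATA match from -47 to -42. Xirp2 held 1 AP-1 match (-107 to -101) and 1 MEF2 site (-74 to -65). Fhl2 held a CArG box (-96 to -87), a GATA match (-62 to -57) and a MEF2 site (-31 to -22). Ankrd23 held 1 GATA match (-216 to -211) before its first start, and Ankrd2 held none of the 5. Of the windows not printed, the second of Ankrd23 held an M-CAT match (-120 to -115). The first of Fhl1 (-102 to -93) and the second of Fhl2 (-31 to -22) each held a CArG box, although no library had a peak over them. The second of Fhl1 held none. None of these matches overlapped another. Among 32851 RefSeq windows of the same length, 12.6% held an M-CAT match, 9.99% a GATA match, 6.75% an AP-1 match, 2.92% a MEF2 site and 1.47% a CArG box. A match is a description of the letters and not a bound site.

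Peak calls over these windows, extended by the first 50 transcribed bases, differed by gene. The start of Ankrd23 was covered by 155, 300, 300, 300, 0 and 193 of 300 bp, so 5 of 6 libraries called it. Over the Xirp2 start, peaks covered 0, 187, 300, 133, 0 and 300 bp. Over the first Fhl2 start, at 43196761, they covered 0, 300, 300, 167, 0 and 0 bp, and over the Ankrd1 start 0, 14, 186, 0, 0 and 0 bp. Across all RefSeq start windows, 3%, 14.2%, 24.3%, 8.21%, 0.0792% and 2.27% were overlapped by a peak in the same libraries. The second Ankrd23 start, at 36535739 on chromosome 1, was covered by 0, 60, 183, 70, 0 and 0 bp. Both Fhl1 starts in the RefSeq table, at 56779683 and 56786527 of the X chromosome, and the second Fhl2 start, at 43163961 of chromosome 1, had no peak over their windows in any library. The annotated 5′ end of Fhl1, which lies upstream of both of its windows, was called in 4 libraries.

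In all, the 7 windows held 17, 107, 193, 57, 1 and 19 peaks, and 5, 6, 7, 7, 1 and 6 of the 7 genes had at least 1. The authors' lists gave each peak a fold enrichment over background at its summit, and peaks were ranked by it within their own list, with equal folds sharing a rank. Such ranks describe a position in 1 list and show no change between lists.

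**Figure D1:**
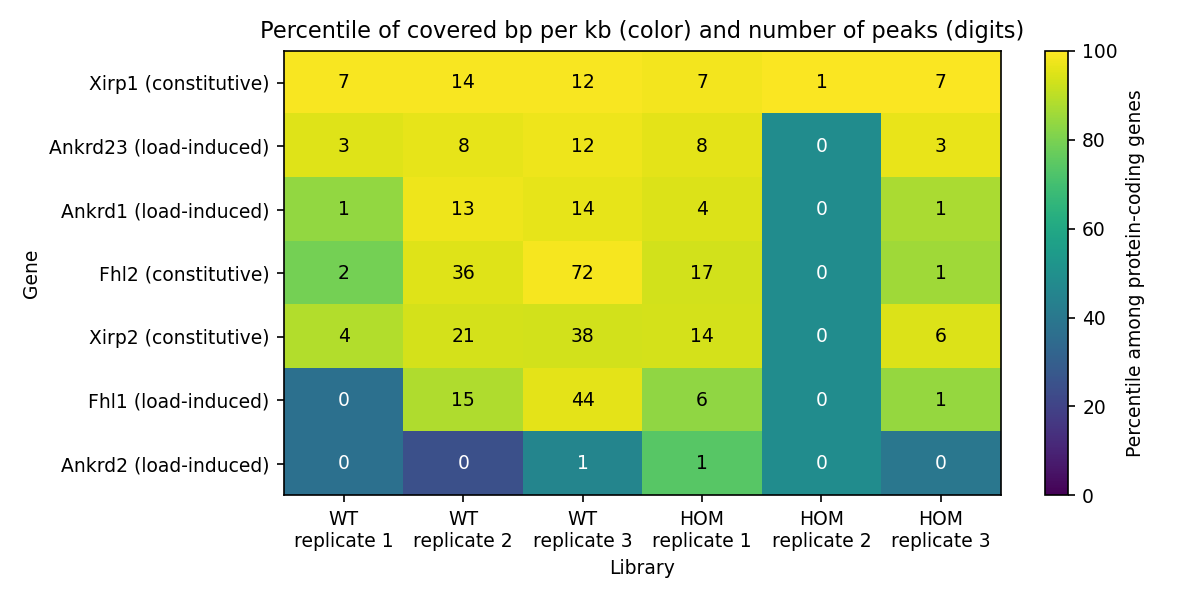
Number of called peaks (digits) in the window of each gene (rows) in each library (columns), on a color scale of the within-library percentile of covered bp per kb among 21887 protein-coding genes. Genes without a peak share the middle percentile of all genes at 0, so a column with few called genes has a higher color for 0 peaks; Xirp1 has the highest percentile in every column.

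Ankrd1 (gene ID 107765, chromosome 19, 36111965 to 36119844, minus strand) held 1, 13, 14, 4, 0 and 1 peaks. They covered 196, 4930, 6431, 1780, 0 and 171 bp. Between 75.7% and 100% of the covered length lay within 5 kb of the 5′ end in the 5 libraries with a peak, a stretch that makes up 35.9% of the window. The most often called stretch, in 4 libraries, ran from -1073 to -237 relative to the annotated 5′ end (36120081 to 36120917). WT replicates 2 and 3 each had 2 peaks there and HOM replicates 1 and 3 had 1 each, with no base common to all 4. In WT replicate 1 the only peak lay inside the gene, from 36115086 to 36115281, and overlapped peaks of WT replicates 2 and 3 in a region that no HOM library called.

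The leading Ankrd1 peak had a fold of 4.84 in WT replicate 1 (rank 7515, 35.2% of the way down the list), 7.65 in WT replicate 2 (rank 4751, 6.57%) and 8.06 in WT replicate 3 (rank 11119, 10.4%). It had 4.91 in HOM replicate 1 (rank 15434, 32.1%) and 5.04 in HOM replicate 3 (rank 4440, 29.2%). No Ankrd1 peak thus stood in the top 5% of its list. The peaks were 162 to 2791 bp wide, the widest in WT replicate 3.

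Ankrd23 (gene ID 78321, chromosome 1, 36530193 to 36536556, minus strand), a relative of Ankrd1 also known as DARP, held 3, 8, 12, 8, 0 and 3 peaks. These covered 680, 3838, 7558, 2048, 0 and 698 bp. A region across the 5′ end, from -355 to 704 (36535852 to 36536911), was called in 5 libraries. Another one, from -2774 to -1436 (36537992 to 36539330), was also called in 5 libraries and overlaps Ankrd39, whose annotation begins 1615 bp from that of Ankrd23, so its peaks cannot be assigned to either gene. A region inside the gene, from 822 to 2134, was called in 4. The leading peak had folds of 5.24, 9.67 and 12.5 in WT (ranks 4654, 1128 and 1917, or 21.8%, 1.56% and 1.8% down the lists). In HOM replicates 1 and 3 it had folds of 4.91 and 5.04 (32.1% and 29.2% down).

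Ankrd2 (gene ID 56642, chromosome 19, 42035917 to 42045111, plus strand), the stretch-responsive member known mainly from slow skeletal muscle, was nearly bare. It had 1 peak of 162 bp in WT replicate 3 and 1 of 263 bp in HOM replicate 1, and none in the other 4 libraries. Neither peak touched the gene body. The WT peak (42033833 to 42033994, rank 80010) overlapped the neighbour Ubtd1, and the HOM peak (42035394 to 42035656, rank 21711) spanned -523 to -261 relative to the annotated 5′ end. With 1 called library per genotype, the 2 genotypes could not be told apart here.

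Fhl1 (gene ID 14199, X chromosome, 56731209 to 56793346, plus strand) held 0, 15, 44, 6, 0 and 1 peaks covering 0, 4845, 18794, 1626, 0 and 330 bp. Its most often called region, in 4 libraries, crossed the 5′ end of the annotated gene from -905 to 207 (56730304 to 56731416). A 185 bp core of it, from 56731060 to 56731244, was common to all 4. The highest fold was 6.85 and 8.51 in WT replicates 2 and 3 (11.1% and 8.89% down the lists), and 6.42 and 4.2 in HOM replicates 1 and 3 (7.91% and 71.7% down). In WT replicates 2 and 3 the peak at the 5′ end shared it with a peak inside the gene (56772794 to 56773346 and 56772227 to 56773459). WT replicate 1 was without a call although its list is longer than that of HOM replicate 3. The X chromosome as a whole carried 0.274%, 0.895%, 1.27%, 0.344%, 1.08% and 0.307% of the covered length, and 149, 42, 44, 156, 19 and 18 peaks lay on the Y chromosome. The part of these differences in the Fhl1 values was not tested.

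**Figure D2:**
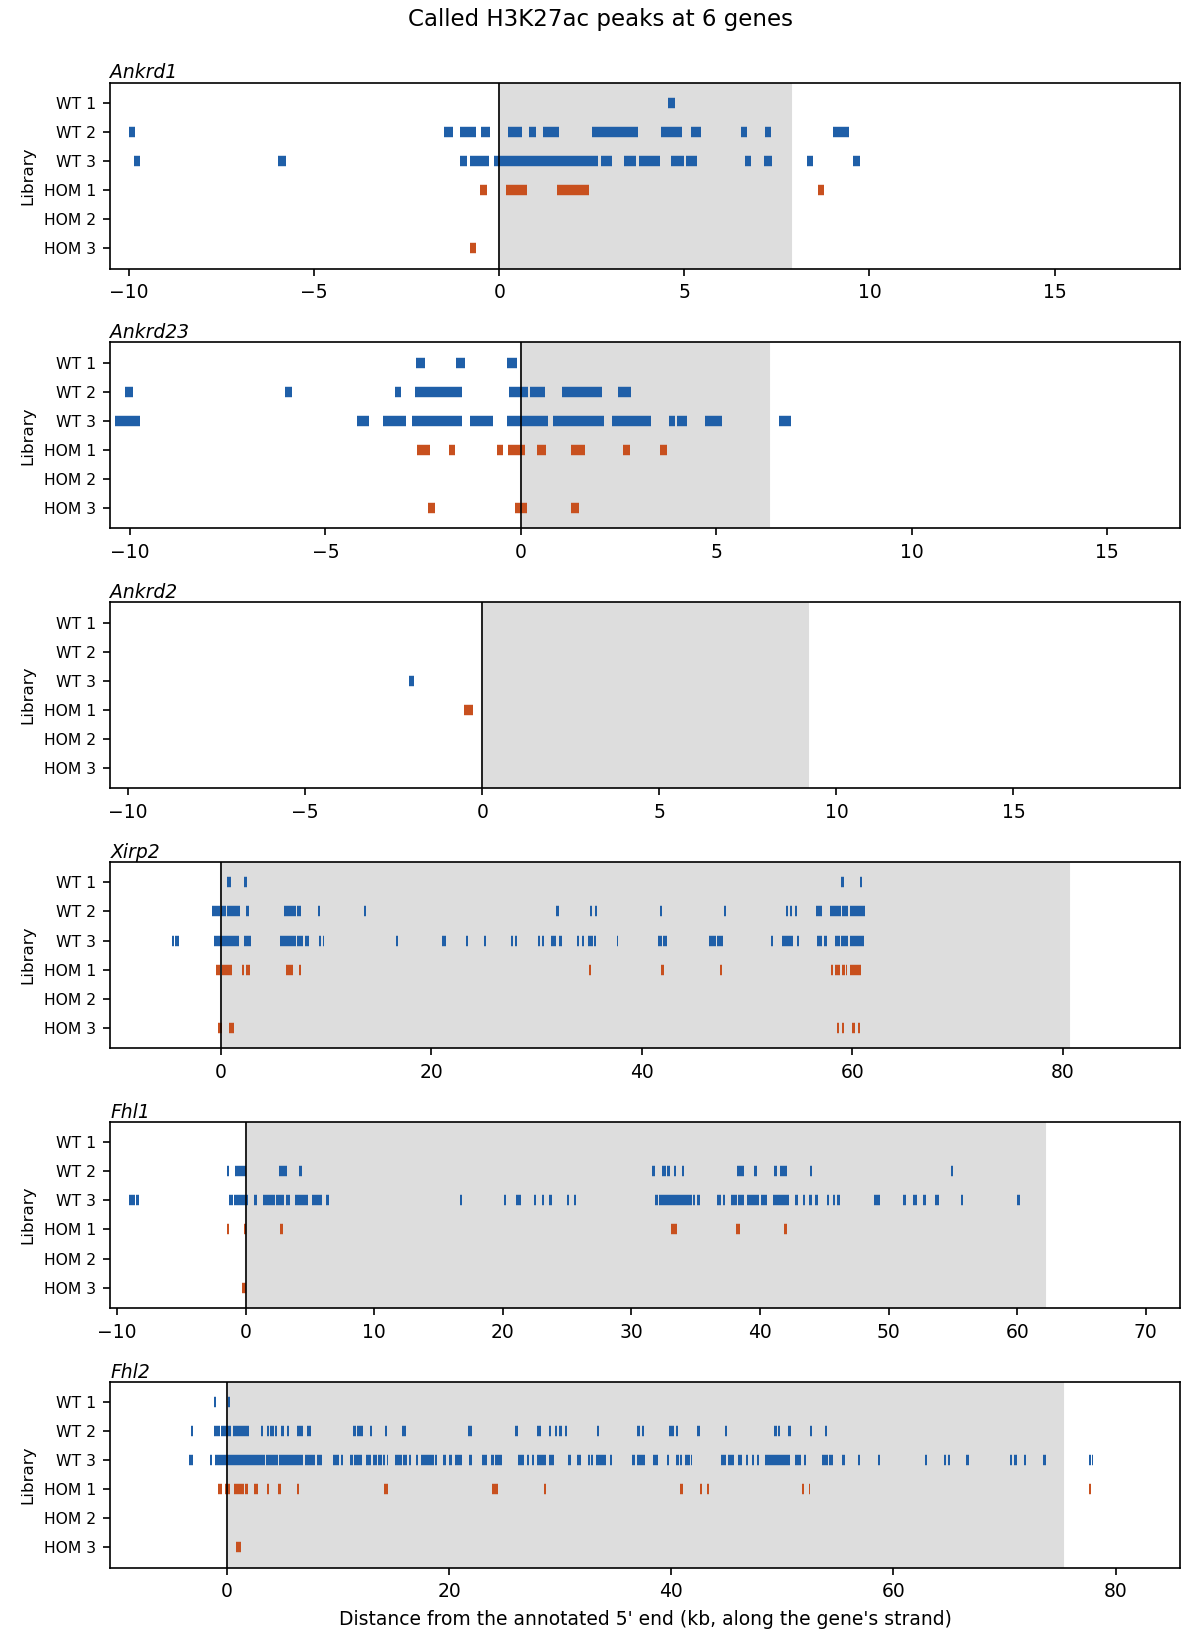
Called peaks (bars; WT blue, HOM orange) by library at 6 genes, against the distance in kb from the annotated 5′ end along the gene's strand, with the gene body in grey. Covered length gathers at the 5′ end of Ankrd1 and Ankrd23, and Xirp2 has a second cluster from 57.8 to 61.2 kb. Peaks of Fhl2 also spread along the gene in WT 2, WT 3 and HOM 1. HOM 2 has no peak at any of the 6.

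Xirp1 (gene ID 22437, chromosome 9, 120013755 to 120023598) was the only one of the 7 with a peak in HOM replicate 2, where 2.44% of genes had one. Its window held 7, 14, 12, 7, 1 and 7 peaks covering 2224, 7750, 11184, 3506, 69 and 1981 bp. A region of 3351 bp at its upper end (120020242 to 120023592) was called in all 6 libraries. Within it 51 bp, from 120022399 to 120022449, were covered in every one. Further regions from 120023656 to 120024962 and from 120026585 to 120027983, beyond the upper end, were called in all but HOM replicate 2. At the lower end, 2 regions (120012366 to 120015026 and 120015075 to 120015962) were called in 3 WT and 0 HOM libraries. In neither was any base common to the 3. The peaks of WT replicates 1 and 2 did not overlap there and were joined through those of WT replicate 3.

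The leading Xirp1 peak had folds of 5.24, 10.9 and 11.6 in WT and 6.79, 5.13 and 5.88 in HOM. It stood 21.8%, 0.603% and 2.64% down the WT lists and 5.51%, 80.9% and 9.69% down the HOM lists. In HOM replicate 2 the peak was 69 bp wide and of low rank (1183 of 1462), so that call was among the weaker ones of its list.

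Xirp2 (gene ID 241431, chromosome 2, 67446000 to 67526620, plus strand), a long gene, held 4, 21, 38, 14, 0 and 6 peaks covering 1096, 9838, 16508, 5622, 0 and 1700 bp. The regions called in 5 libraries lay at 2 places, although in WT replicate 3 most of the covered length lay outside them. The 5′ region from 67445188 to 67447783 held 375, 2385, 2387, 1365, 0 and 850 covered bp, with 198 bp (67446762 to 67446959) common to the 5 calling libraries. The second place, 57.8 to 61.2 kb into the gene (67503841 to 67507164), held 2, 3, 3, 5, 0 and 4 peaks covering 429, 3008, 2470, 2171, 0 and 850 bp. It also lies inside the long noncoding RNA gene Gm13601 (67490648 to 67516715). A 5′ peak had the highest fold of the gene in every calling library, tied with a peak of the distal place in HOM replicate 3. It ranked 488, 1528, 811, 867 and 4440 in WT replicates 1, 2 and 3 and HOM replicates 1 and 3, which is 2.29%, 2.11%, 0.761%, 1.8% and 29.2% down the lists.

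Fhl2 (gene ID 14200, chromosome 1, 43123071 to 43198343, minus strand) held 2, 36, 72, 17, 0 and 1 peaks, the widest range of the 7 genes. They covered 405, 11448, 33742, 5030, 0 and 477 bp. The 5′ region from 43194969 to 43199534 was called in 5 libraries, and in WT replicate 3 a single peak of 4441 bp filled most of it. No base was common to the 5. In WT replicate 1 and HOM replicate 3, the shorter lists, all peaks lay within 5 kb of the 5′ end, a stretch that makes up 10.5% of the window. It held 36.4% and 19.1% of the covered length in WT replicates 2 and 3 and 53.2% in HOM replicate 1. In WT replicate 3 it held 5 of the 72 peaks. The leading peak had folds of 4.84, 8.46 and 13.4 in WT (35.2%, 3.81% and 1.21% down) and 6.42 and 6.72 in HOM replicates 1 and 3 (7.91% and 3.58% down). The single peak of HOM replicate 3 ranked 544 of 15184.

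**Figure D3:**
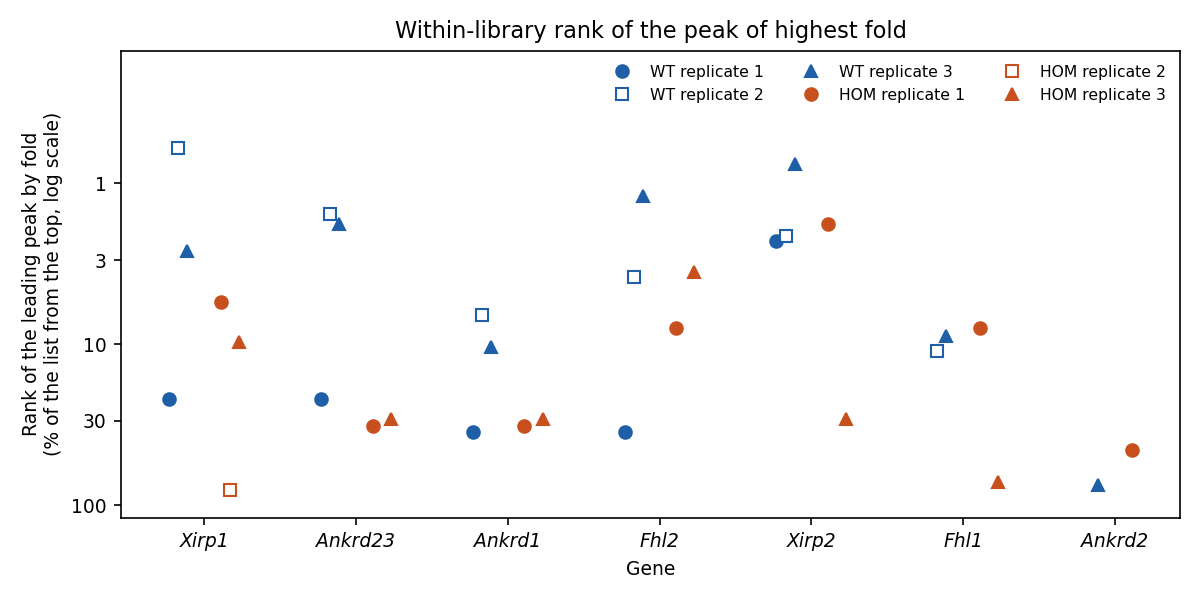
Position of the peak of highest fold at each gene (x axis) within its own list, as the percentage of the list from the top on a reversed log scale; symbols are libraries, and a missing symbol means no peak. Xirp2 is within the top 3% in 4 libraries, and Ankrd2 has 2 symbols, at 45.1% and 75%.

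Peaks were 162 to 1313 bp wide at Ankrd23, 162 to 2551 bp at Fhl1, 69 to 3295 bp at Xirp1, 162 to 2387 bp at Xirp2 and 162 to 4441 bp at Fhl2. At each of these 5 genes, as at Ankrd1, the widest peak was called in WT replicate 3, the longest list. Across the 7 windows 201 merged regions were found. Of these, 132 came from 1 library, 38 from 2, 17 from 3, 5 from 4 and 9 from 5 or 6. All 3 WT libraries and no HOM library called 3 regions, the 2 at Xirp1 and 1 inside Ankrd1, and no region was called by 2 or more HOM libraries alone. Of the 3, only the Ankrd1 region had bases common to all 3 WT libraries (107 bp). Of 114976 merged regions genome wide, 1.03% and 0.027% had these patterns. The 6 HOM regions without any WT call each rested on 1 library.

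Windows were 26.4 kb long at Ankrd23, 27.9 at Ankrd1, 29.2 at Ankrd2 and 29.8 at Xirp1. They were 82.1 kb at Fhl1, 95.3 at Fhl2 and 101 at Xirp2. The part of window length in the order below, and in the comparison of the 2 kinds of gene, was not tested. Per kb of window, Xirp1 had the highest coverage of the 7 genes in all 6 libraries. In covered bp, Fhl2 and Xirp2 exceeded it in WT replicates 2 and 3 and HOM replicate 1. The covered length of Xirp1 was 74.5, 260, 375, 117, 2.31 and 66.4 bp per kb, where the median protein-coding gene had 0, 1.31, 8.75, 0, 0 and 0. Relative to the Mb covered in each library, and without HOM replicate 2, the mean per kb was 9.51 ± 3.36 bp per Mb for Xirp1 (SD, n = 5 libraries), 4.79 ± 0.741 for Ankrd23 and 3.17 ± 1.93 for Ankrd1. Fhl2, Xirp2, Fhl1 and Ankrd2 followed with 2.99 ± 2.3, 2.93 ± 0.782, 1.6 ± 1.55 and 0.125 ± 0.227. Xirp1 exceeded the next gene, Ankrd23, in 5 of 5 libraries, by 4.71 ± 3.16 (SD of the paired differences). For every other pair of neighbours in this order the paired difference was smaller than its SD, so their order is not settled.

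Load-induced genes carried less acetylated length per kb than constitutive ones in 5 of 6 libraries, and both medians were 0 in HOM replicate 2. Median covered length was 3.52, 102, 230, 41.8, 0 and 5.08 bp per kb for the 4 load-induced genes. For the 3 constitutive genes it was 10.9, 120, 354, 55.9, 0 and 16.9 bp per kb. The difference was -7.38, -17.9, -124, -14, 0 and -11.8 bp per kb, with a mean of -29.3 ± 47 (SD, n = 6 libraries), smaller than its spread. No test was made over so few members. Without WT replicate 3 the mean was -10.2. With Xirp2 counted as load-induced it was -53.4, negative in all 6 libraries, and with Ankrd23 counted as constitutive it was -41.4. With gene bodies alone it turned to 10.2, with -13.6, 46.2, 19.9, 26.1, 0 and -17.3 in the 6 libraries. With the nearly bare Ankrd2 left out, an alternative chosen after the values were seen, the difference was positive in WT replicate 2 (25.4) and HOM replicate 1 (7.97), and negative in WT replicates 1 and 3 and HOM replicate 3 (-3.86, -124 and -10.8). The 2 kinds of gene overlapped in coverage. Ankrd23, a load-induced gene, lay above Fhl2 and Xirp2 in WT replicate 1 (25.8 against 4.25 and 10.9 bp per kb) and in HOM replicate 3 (26.5 against 5.01 and 16.9). The region that overlaps Ankrd39 and cannot be assigned to either gene held 434 of the 680 covered bp in WT replicate 1. In HOM replicate 3 it held 181 of 698 bp. Within the Ankrd23 gene body WT replicate 1 had 0 covered bp, so its place above Xirp2 there depends on the shared region.

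Larger lists of the same 2 kinds, chosen from textbook knowledge, also had the lower median among load-induced genes in those 5 libraries. Of 20 other load-induced genes, 12, 14, 15, 13, 1 and 10 had a peak in their window, with medians of 8.68, 56.7, 95.9, 21.1, 0 and 2.45 bp per kb. No peak lay at Acta1, Mybphl, Postn, Thbs1 or Tnc in any library, and of these Postn and Tnc are known mainly from fibroblasts. Of 20 other constitutive cardiomyocyte genes, 20, 20, 20, 20, 0 and 20 had a peak, with medians of 23.7, 147, 266, 77, 0 and 24.7 bp per kb. Pln, Mb and Fabp3 had the highest coverage per kb among them, and Ryr2, Myh6 and Casq2 the lowest. Ryr2 had 0.941, 33.7, 109, 16.6, 0 and 2.07 bp per kb and Pln 213, 355, 554, 324, 0 and 140.

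Between genotypes, none of the 7 genes differed beyond the spread of its libraries. The covered share, the bp covered in a gene's window per Mb covered genome wide in the same library, was compared with a two-sided exact permutation test over the 20 assignments of the 6 libraries, whose smallest p is 0.1. At Ankrd1 it was 29.3, 156, 116, 103, 0 and 37.7 bp per Mb, so the groups overlapped, with means of 100.2 ± 64.7 (WT) and 47 ± 52.4 (HOM; SD of 3 libraries). HOM minus WT was -53.2 (exact permutation p = 0.3). At Ankrd23 the share was 102, 121, 136, 119, 0 and 154, a difference of -28.7 (exact permutation p = 0.8). HOM replicate 1 lay inside the WT range, HOM replicate 2 below it and HOM replicate 3 above it, and without HOM replicate 2 the difference turned to 16.8.

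At Xirp1 the share was 332, 245, 201, 204, 233 and 436 bp per Mb, with means of 259 ± 66.9 (WT) and 291 ± 126 (HOM; SD of 3 libraries; exact permutation p = 0.8). HOM replicates 1 and 2 lay inside the WT range and HOM replicate 3 above it. At Xirp2 it was 164, 311, 297, 327, 0 and 374, a difference of -23.4 (exact permutation p = 1). Without HOM replicate 2 the remaining HOM libraries lay above every WT library, the difference was 93.4, and the exact permutation p was 0.3. Of all protein-coding genes, 2.7% showed this pattern in the same 5 libraries, and 5.5% the opposite one. With these 5 lists at 15184 peaks each, the Xirp2 difference was 164 (exact permutation p = 0.2), again with both HOM libraries above WT. That held for 2.33% of genes at equal length, and the opposite for 2.81%.

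Fhl1 had shares of 0, 153, 338, 94.5, 0 and 72.7 bp per Mb, with means of 164 ± 169 (WT) and 55.7 ± 49.5 (HOM; SD of 3 libraries; exact permutation p = 0.5). The WT values span the HOM ones. Fhl2 had 60.5, 362, 606, 292, 0 and 105, with means of 343 ± 273 (WT) and 133 ± 148 (HOM; SD of 3 libraries). HOM minus WT was -210 (exact permutation p = 0.3). Its WT replicate 1 lay below 2 of the HOM libraries. At Ankrd2 the share was 0, 0, 2.91, 15.3, 0 and 0 (exact permutation p = 1). The Benjamini-Hochberg adjusted value was 1 for all 7 genes over the 21887 genes tested, and no gene had a lower one. The smallest unadjusted p was reached by 1200 genes, none of the 7 among them. At Ankrd1, Ankrd2, Ankrd23, Xirp2, Fhl1 and Fhl2, HOM exceeded WT in the pair with over 50 Y chromosome peaks, WT replicate 1 and HOM replicate 1, by 15.3 to 232 bp per Mb. Among the other 4 libraries the difference at these 6 genes was negative, from -432 to -1.46. Xirp1 went the other way, with -128 in the pair and 112 in the 4. The limit of 50 is a raw count and does not allow for list length. The 4 include HOM replicate 2, which was at 0 for all but Xirp1 and had 19 Y chromosome peaks of 1462. WT replicates 2 and 3 had 42 of 72362 and 44 of 106605. The part of this split in the genotype values was not tested.

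**Figure D4:**
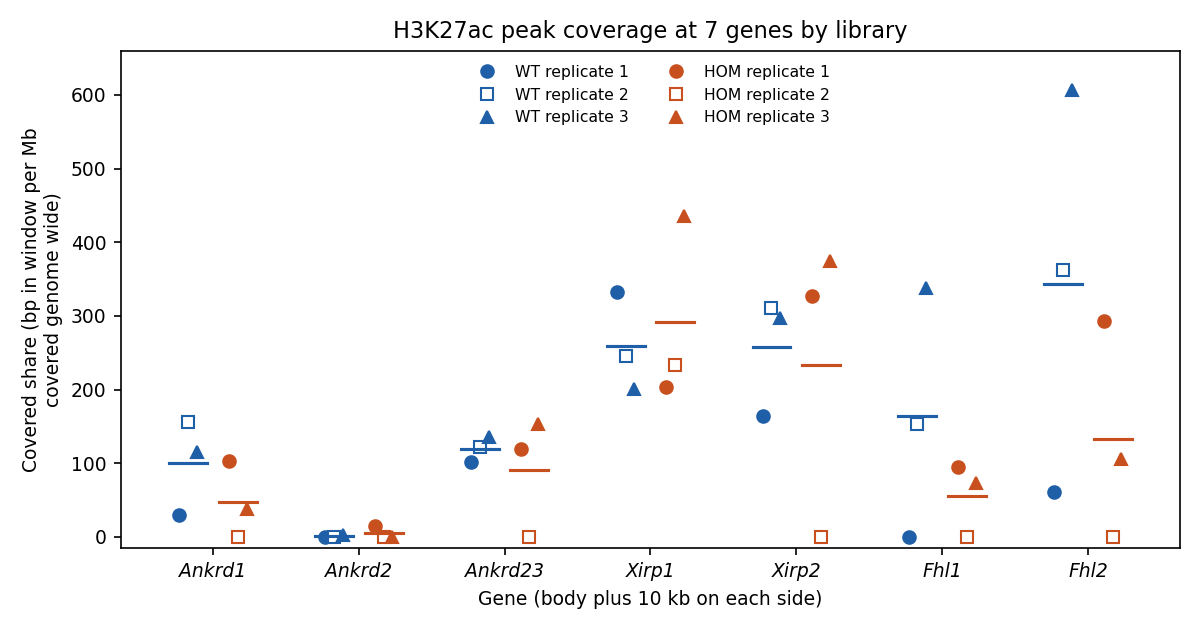
Covered share of each gene's window (bp per Mb covered genome wide, y axis) in 3 WT (blue) and 3 HOM (orange) libraries, with group means as lines and symbols for replicates. WT and HOM overlap at all 7 genes, and HOM replicate 2 is at 0 for 6 of them.

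Counted by non-overlap, 0 of the 7 genes had every WT library above every HOM library and 0 had the reverse, where 5.32% and 0.164% of all protein-coding genes did. The reverse requires a peak in HOM replicate 2. That library had one at 1 of the 7 genes and at 2.44% of all genes, so the reverse could not occur at the others. Without WT replicate 1 the other WT libraries lay above every HOM library at 3 of the 7, Ankrd1, Fhl1 and Fhl2, with exact permutation p-values of 0.2, 0.1 and 0.2, and so they did at 22.9% of all genes. Apart from this and from Xirp2 without HOM replicate 2, leaving out any 1 library separated the groups at none of the 7. Among 20 partner and mechanosensing genes, 2 had all WT libraries above all HOM libraries. Vcl, the gene of the costamere protein vinculin, had shares of 278, 269, 272, 218, 0 and 175 bp per Mb, and Capn3, a titin-bound protease gene, had 59.2, 22.6, 43.2, 0, 0 and 0. In the other load-induced list the 2 were Ccn2, a secreted matrix regulator (209, 140, 95.4, 68.3, 0 and 41.8), and the immediate early gene Egr1 (46.8, 32.1, 33.2, 20.5, 0 and 0). In the list of 11 FHL and ankyrin repeat relatives they were Fhl3 (46.8, 66.3, 80.9, 44.9, 0 and 0) and Ankrd37 (27.8, 21.4, 43.5, 19.1, 0 and 0). Some of these separations rest on few peaks. Egr1 had 1, 3, 4, 1, 0 and 0 peaks, Fhl3 1, 3, 9, 2, 0 and 0, and Ankrd37 1, 2, 4, 1, 0 and 0. For each of the 6 genes from Vcl to Ankrd37 the exact permutation test gave its lowest attainable p, 0.1, with an adjusted value of 1. Groups of 3 that do not overlap always give this p, so it adds nothing to the non-overlap. None of the 20 constitutive genes had non-overlapping groups, and no gene of the 4 lists had all HOM libraries above all WT libraries. Only genes with a peak in HOM replicate 2 could have had that order. They numbered 2, 1, 0 and 1 in the partner, load-induced, constitutive and relative lists. Without HOM replicate 2, the HOM libraries lay above WT at 1, 1, 4 and 0 genes of the partner, load-induced, constitutive and relative lists, and below WT at 2, 2, 0 and 2. The shares over all genes were 2.7% and 5.5%. With these 5 lists at equal length the counts above were 2, 1, 1 and 0 and those below 1, 2, 2 and 1, against 2.33% and 2.81% of all genes.

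By the pattern of covered length over the 6 libraries, expressed as a percentile among all genes, the genes most like the mean of the 7 were Rbpms2, Lsmem1, Rit1, Kdm4b and Aff4. They differed from it by 2.44 to 2.53 percentile points on average. Most like Ankrd1 were Fbxo45, Slc22a5 and Paics, at 1.02, 1.05 and 1.23 points. The libraries' lengths are shared by all genes and shape every such profile.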

How the data were processed

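H3K27ac CUT&RUN libraries (3 WT, 3 HOM) were grouped by title. BWA, MACS2 and the mm10 build are named per the submitters' processing notes, and versions and parameters are not given in the sources used here. Each library has its own peak list. The deposited columns hold a score per peak, the ratio of the summit over background as a fold, and 2 columns on the −log10 scale, 1 from the p-value and 1 from the q-value, all made by the authors. Read counts are not in the lists, so depth is unknown.

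Genes came from RefSeq GRCm38.p6, the assembly of mm10. Peaks overlapping a window by at least 1 bp were counted, and overlapping or touching peaks of different libraries were joined into regions. Exact permutation tests ran on all protein-coding genes, with Benjamini-Hochberg adjustment over them. The coverage computation was tested on simulated data in 200 windows, with 0 mismatches. Members, gene lists and alternatives were chosen with earlier results of these data known. Named genes were the 7 members, list genes with non-overlapping groups (otherwise the 3 highest and 3 lowest by coverage), and the 5 or 3 nearest patterns; marker examples, genes without any peak and genes with peaks in all libraries were named after their values were seen. Alternatives were other flanks (none, 25 kb), the 50% of peaks with higher fold, −log10 q of at least 5, equal list lengths without HOM replicate 2, other assignments to the 2 kinds, peak number in place of length, and libraries left out or split by Y chromosome peaks. Scripts ran in Python 3.11.15 with scipy 1.17.1, pandas 2.3.3, numpy 2.4.6 and, for figures, matplotlib 3.10.9.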

Additional observations from a re-analysis of the deposited data

How the results depend on the processing

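Differences are HOM minus WT covered share in bp per Mb unless another unit is named. Within the libraries with over 50 Y chromosome peaks, 1 per genotype, the direction turned at Ankrd1 (74.2), Ankrd23 (17.4), Xirp1 (-128), Xirp2 (163), Fhl1 (94.5) and Fhl2 (232), and within the other 4 libraries at Ankrd2 (-1.46). It also turned at Xirp1 with −log10 q of at least 5 (-1.88) and at Xirp2 with equal lists without HOM replicate 2 (164), where leaving out that library alone gave 93.4. At Ankrd23 it turned with the gene body alone (3.89), without peaks that overlap another coding gene (1.17) and by peak number (0.000628 per 10000 peaks). Load-induced minus constitutive turned to 10.2 bp per kb with the gene body alone, and was -53.4 with Xirp2 counted as load-induced. Ankrd2 came to 0 with the gene body alone, with higher folds, with the q limit and with equal lists without HOM replicate 2. Leaving out 1 library gave -88.7 to -25.4 at Ankrd1, -0.97 to 6.67 at Ankrd2, -60.1 to 16.8 at Ankrd23, -40.9 to 75.3 at Xirp1, -93.7 to 93.4 at Xirp2, -190 to -20.9 at Fhl1 and -352 to -78.8 at Fhl2, and -35.1 to -10.2 bp per kb for load-induced minus constitutive. HOM replicate 2 set the sign at Ankrd23 and Xirp2, HOM replicate 3 at Xirp1, HOM replicate 1 at Ankrd2, and Xirp2 was 3.55 without WT replicate 2. Genes with all WT above all HOM, 1164, became 461 with the q limit, 773 with the gene body alone and 1203 to 5005 with 1 library left out, the highest without WT replicate 1. Genes with the reverse, 36, became 16 with the q limit, 17 with higher folds and 41 to 592 with 1 library left out, the highest without HOM replicate 2. Without that library, equal list lengths moved these counts from 1203 to 615 and from 592 to 510. The p-values of the members ranged from 0.1 to 1 over 105 exact permutation tests. The causes were not tested. With no counts in the lists, a missing peak cannot be told from low depth.

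With the replicate number as a block the differences are the same by construction, such as -53.2 at Ankrd1 (exact permutation p = 0.5 over the sign flips of 3 pairs). So few pairs allow no call, so none could change. Deviations of same-numbered libraries correlated at -0.53, -0.42 and 0.31 over 13590 genes, and those of differently numbered ones at -0.42 to 0.49. As the lists differ so widely in length, these values cannot show whether the numbers pair the libraries.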

Other observations

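Besides Xirp1, 4 genes of the 4 related lists had a peak in all 6 libraries, which held for 2.07% of protein-coding genes, and they were singled out after their values were seen. Mypn, whose protein myopalladin binds muscle ankyrin repeat proteins at the sarcomere, had 18, 33, 55, 27, 2 and 7 peaks in WT replicates 1 to 3 and HOM replicates 1 to 3. Its covered share was 752, 497, 542, 613, 585 and 554 bp per Mb. Myoz2, which encodes a Z-disc protein that binds calcineurin, had 8, 17, 14, 18, 1 and 5 peaks and shares of 682, 376, 316, 599, 193 and 406. Hspb7, a small heat shock protein gene of the heart, had 5, 9, 8, 9, 1 and 3 peaks and shares of 173, 201, 144, 194, 223 and 153. Ankrd9 had 6, 17, 11, 15, 1 and 5 peaks and shares of 255, 274, 236, 256, 325 and 319. At all 4 the WT and HOM values overlapped.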
